A study of Rattus norvegicus with 32 samples.

Results

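Gene expression in the liver was examined in male Wistar Kyoto (WKY) rats, an inbred strain, at the end of a first exposure to ozone, a reactive pollutant of outdoor air. The ozone group breathed ozone at 1 ppm for 6 h on 1 day, and the air group breathed filtered air (FA) for the same 6 h. Livers were taken at the end of that exposure and gave 6 arrays per group, so the comparison used 12 of the 32 arrays of the series, chosen by the exposure and harvest time in the sample titles. The other 20 arrays came from rats that breathed ozone or filtered air for 6 h per day on 2 days. Their livers were taken at the end of day 2 (5 ozone and 5 air arrays) or 18 h later (5 ozone and 5 air arrays), and they entered the comparison only through the shared estimate of the spread and a closing comparison of the times. All rats were 10 weeks of age with a weight of 250 to 300 g, and the labels name no allele, no drug and no injection. Whether each array came from a separate animal is not given in the labels, so the p-values measure the spread between these samples, and the number of arrays limits their precision.

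Inhaled ozone is used up in the lining of the airways, and the liver meets what the blood brings from elsewhere, such as stress hormones, cytokines and fatty acids released from fat. The liver answers such signals by changing how it breaks down amino acids, burns or stores fat, makes glucose, cholesterol and bile acids, and secretes plasma proteins. Acute ozone exposure is known in rats for raising stress hormones and glucose in the blood.

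Each array gave 1 intensity per probe set, in linear units, with an array median of 147 to 160 on day 1. Tests were run on log2(intensity + 16), with limma, over all 19062 probe sets that name a single gene, and the brightest probe set stood for each of 13437 genes. A difference is ozone minus air on that log2 scale with its SE, a gene counts as past the threshold at a Benjamini-Hochberg adjusted p under 0.05, and values of 6 arrays are given as the lowest, the median and the highest intensity. Differences of dim genes are understated on this scale. The labelled tissue carried the markers of hepatocytes, whose summed intensity over 12 genes was 80637 to 88731 units on ozone arrays and 84538 to 88893 units on air arrays, and 1 of them fell, Asgr1, a receptor for serum glycoproteins (-0.23 ± 0.05). Probes for nonspecific binding read low on ozone replicate 3 (66.1 units) and air replicate 2 (54.3 units), against 86.4 to 92.0 units on the other 10 arrays. The first principal component of the 12 arrays held 50.6% of the variance and placed all ozone arrays (8.94 to 13.25) apart from all air arrays (-14.36 to -9.14).

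At the end of the first exposure, 3294 of 13437 genes (24.5%) passed the threshold, of which 1477 (11.0%) rose and 1817 (13.5%) fell. Most of these differences were small, and their median size was 0.23 on the log2 scale. A change of at least 2-fold was seen for 30 genes that rose and 34 that fell. The values of both groups did not overlap at all for 850 genes that were higher (6.33%) and 1025 that were lower (7.63%) in ozone. The median difference over all genes was 0.01.

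The largest rise belonged to Cxcl1, the chemokine that draws neutrophils through the receptor CXCR2. It read 602, 1727 and 2222 units on ozone arrays, against 119.9, 147 and 346 units on air arrays. No ozone array reached as low as the highest air array, and the difference was 3.00 ± 0.52 (8.02-fold; limma, adjusted p = 6.5e-05). It was the largest difference of any gene past the threshold with an annotated name, in either direction. Its promoter is shown because NF-kB, the transcription factor of inflammatory signalling, acts on neutrophil chemokines through sites close to the gene. The 250 bases before the annotated start (RefSeq, GRCr8, chr14:17479322-17479571, minus strand) are printed 5′ to 3′ along the gene, with both matches to the NF-kB motif, searched on both strands, in capitals.
Cxcl1: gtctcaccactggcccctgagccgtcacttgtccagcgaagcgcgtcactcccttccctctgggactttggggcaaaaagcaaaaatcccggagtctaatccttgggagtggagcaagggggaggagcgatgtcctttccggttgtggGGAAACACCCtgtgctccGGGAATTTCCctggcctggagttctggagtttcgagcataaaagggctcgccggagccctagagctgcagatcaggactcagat
The matches lie 102 to 93 and 84 to 75 bases before the start. The first overlaps a match to the glucocorticoid receptor motif ACANNNTGT, at 98 to 90 bases. Of 33469 rat promoters of this length, 1.3% held the NF-kB motif and 5.81% the glucocorticoid receptor motif. Among the 11088 of measured genes the shares were 1.54% and 3.79%. The NF-kB motif was present in 1.7% of those of genes that rose and in 1.4% of those of genes that fell. Among other chemokines with a known promoter, 1 of the 7 that fell held it, Ccl9. It was also present in 3 of the 11 that did not pass the threshold, Ccl20, Cxcl6 and Cxcl2. A match shows only that these letters are present.

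**Figure D1:**
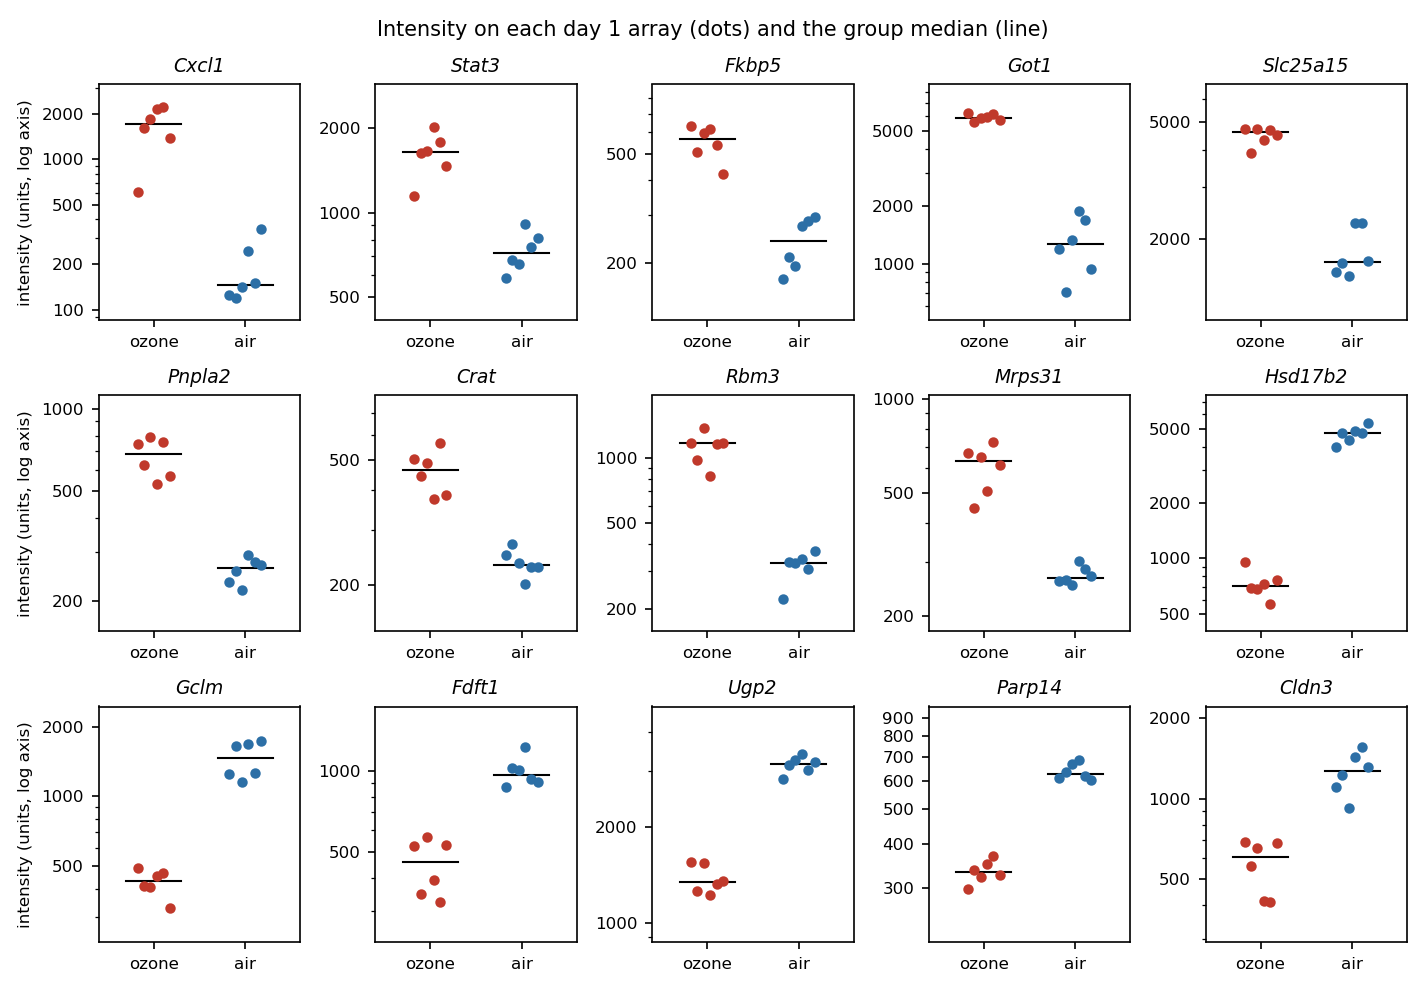
Intensity in units on a log axis for 15 genes, with 1 dot for each of the 6 ozone arrays (left) and 6 air arrays (right) of day 1 and a line at the group median. In all 15 panels the ozone and air arrays do not overlap, with the first 9 genes higher and the last 6 lower in ozone.

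Got1 followed among the rises. It encodes the cytosolic aspartate aminotransferase, which moves nitrogen between aspartate and glutamate. Ozone arrays read 5572, 5872 and 6194 units and air arrays 711, 1262 and 1887 units, with no overlap, a narrow spread in ozone and a wide one in air. The difference was 2.25 ± 0.32 (4.75-fold, adjusted p = 4.7e-06). Sds, serine dehydratase, which turns serine into pyruvate for glucose production, read 4977, 5843 and 6488 units in ozone, against 749.8, 1713 and 2532 units in air. Its groups did not overlap either, and it rose by 1.89 ± 0.35.

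Rbm3, an RNA-binding protein best known for its rise in the cold, read 825, 1162 and 1368 units on ozone arrays, against 224, 328 and 372 units on air arrays (1.76 ± 0.26). Cdkn1a, the p21 inhibitor of the cell cycle, read 372, 935 and 1110.5 units, against 217, 231 and 264 units (1.75 ± 0.18). Atp1b1, the beta subunit of the sodium pump, read 2418, 2791 and 3328 units, against 723, 826 and 1018 units (1.70 ± 0.19). For all of these the lowest ozone array lay above the highest air array, though ozone values of Cdkn1a spread widely.

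The other named rises lay between 1.32 and 1.51 on the log2 scale. They were Pex11a, which divides peroxisomes; Edem1 and Ube2g2, which serve the disposal of misfolded proteins of the endoplasmic reticulum; Por, the reductase that feeds electrons to the cytochromes P450; Nnmt, which methylates nicotinamide; Pnpla2, the lipase that starts triglyceride breakdown; Kif21a, a kinesin motor; and Dipk1c and Lgalsl. Edem1 was among the bright genes of this group, at 5363, 5949.9 and 7005 units in ozone and 1521, 2433 and 2923 units in air.

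The largest fall was that of Hsd17b2, which oxidises estradiol and testosterone to weaker steroids. It read 571, 712 and 959 units on ozone arrays, against 3977, 4745 and 5366 units on air arrays. The groups lay far apart, and the difference was -2.66 ± 0.33 (adjusted p = 8.3e-07). Nrep, first described in regenerating neurons, read 252, 338 and 507 units in ozone, against 870.4, 1427 and 1809 units in air (-1.87 ± 0.39). Ifgga2l1, annotated as a GTPase of the interferon-gamma-induced family, read 331, 404 and 555 units, against 1299, 1462 and 1802 units (-1.80 ± 0.33). Ppp2r2b, which steers protein phosphatase 2A to its substrates, fell by 1.75 on the log2 scale. The highest ozone array of each lay below the lowest air array.

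The falls continued with Gclm, Tsku and Fabp7. Tsku, a secreted protein of the liver, read 189.9, 264 and 379.9 units in ozone and 428, 954 and 1287 units in air, and Fabp7, a fatty acid carrier first known from brain, read 584, 797 and 832 units in ozone and 2002, 2378 and 2826 units in air. Fabp7 differed by -1.62 ± 0.17 (limma, adjusted p = 8.9e-08). Its lowest value was that of ozone replicate 6, where the other ozone arrays read 771 to 832 units. Hao2, a peroxisomal hydroxyacid oxidase, read 914, 1011 and 1465 units in ozone, against 2839, 3277 and 3496 units in air (-1.55 ± 0.21). St3gal6, a sialyltransferase, differed by -1.48 ± 0.15, Slc25a30, a mitochondrial carrier, by -1.40 ± 0.24, Serpina7, the thyroxine-binding globulin, by -1.33 ± 0.23, Rcan1, an inhibitor of calcineurin, by -1.31 ± 0.30, and Palld, which organises actin, by -1.27 ± 0.18. Air values of Slc25a30 ran widely, at 379, 801 and 1614 units, against 240.1, 273 and 298 units in ozone.

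Gene lists were read against the shares over all genes, 11.0% higher and 13.5% lower. Lists were described by counts and medians, with no test of the list as a whole, and some genes stand in several lists. Counts of 3 or fewer, 0 included, moved by up to 3 when 1 day 1 array was left out. Since liver tissue is a mix of cells, fewer cells of a type and less RNA per cell cannot be told apart.

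**Figure D2:**
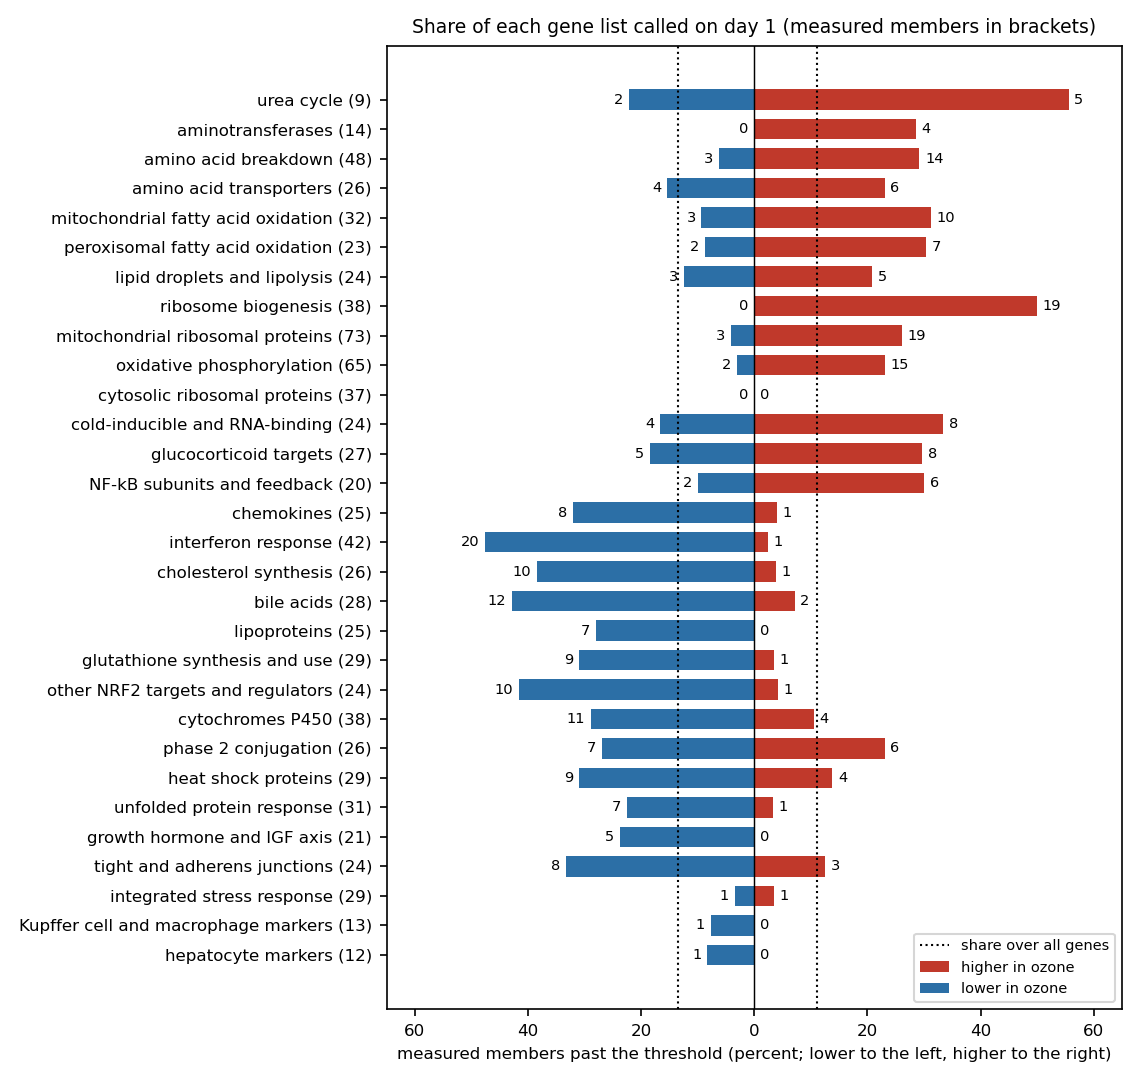
Percent of the measured members of 30 gene lists that passed the threshold on day 1, higher in ozone to the right and lower to the left, with the count at the end of each bar and the number measured in brackets. Dotted lines mark the shares over all 13437 genes, 11.0% higher and 13.5% lower; urea cycle, ribosome biogenesis and the interferon response reach farthest past them.

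Among chemokines Cxcl1 was the single gene that rose. Of 25 chemokine genes, 1 rose and 8 fell, with a median of -0.07. Cxcl12, which holds and recruits leukocytes through CXCR4, read 1114, 1185 and 1455 units in ozone, against 1571, 1847 and 2065 units in air (-0.56 ± 0.12). Cxcl11, an interferon-induced ligand of CXCR3, differed by -0.77 ± 0.19. Cxcl2, the close relative of Cxcl1, read 89.5, 109 and 116 units in ozone, against 83.4, 113 and 115 units in air, which is near the nonspecific signal, and its groups overlapped (-0.01 ± 0.05, adjusted p = 0.91). Ccl2, which draws monocytes, differed by -0.17 ± 0.07 (adjusted p = 0.077).

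The classic cytokines were dim and did not pass the threshold. Il6 read 109.7, 133 and 145 units in ozone, against 81.0, 130.01 and 140.4 units in air, and Tnf differed by 0.08 ± 0.03 (adjusted p = 0.068). The overlapping values leave no difference detectable at this signal. Of 18 genes for cytokines and growth factors of inflammation, 1 rose and 3 fell. Inhbe, the activin E subunit made by hepatocytes, rose (0.71 ± 0.15), and Inhba, the activin A subunit, fell (-0.71 ± 0.13). Il33, an alarm signal kept in nuclei, also fell, at 576, 635 and 797 units in ozone and 933, 983 and 1141 units in air (-0.62 ± 0.15).

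Downstream of such signals, 6 of 20 genes for NF-kB subunits and their feedback rose and 2 fell. Bcl3, a co-activator of NF-kB, read 328, 449 and 476 units in ozone, against 207, 220.3 and 283 units in air (0.82 ± 0.18). Myd88, the adaptor of interleukin 1 and Toll-like receptors (0.53 ± 0.10), Chuk, a kinase of the pathway (0.44 ± 0.07), and the inhibitors Nfkbib (0.39 ± 0.06) and Irak3 (0.33 ± 0.06) rose without overlap between the groups. Nfkbia, the feedback inhibitor that NF-kB induces, was lower in every ozone array than in any air array, but its difference of -0.32 ± 0.13 did not pass the threshold (adjusted p = 0.077).

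Stat3, which carries interleukin 6 signals in hepatocytes, read 1149.97, 1647 and 2025 units on ozone arrays, against 583, 716 and 914 units on air arrays. The groups did not overlap, and Stat3 rose by 1.12 ± 0.13 (2.17-fold, adjusted p = 2.6e-07). In the list of 20 STAT3 and C/EBP genes, 3 rose and 6 fell. The feedback inhibitor Socs3, itself induced by STAT3, rose by 0.32 ± 0.08, while the kinase Tyk2 (-0.27 ± 0.06) and Socs2 (-0.95 ± 0.17) fell. Plasma proteins of the acute phase gave few calls: of 26 such genes 1 rose, Serpina3n (0.34 ± 0.08), and 3 fell. A2m, the strongest acute phase protein of the rat, read 224, 334 and 743 units in ozone, against 220.1, 251 and 278 units in air (0.62 ± 0.41, adjusted p = 0.31). Its ozone values ran widely, and the groups overlapped.

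Glucocorticoids act through the receptor Nr3c1, whose own transcript fell (-0.38 ± 0.10), at 644, 671 and 739 units in ozone and 824, 858 and 1072 units in air. Fkbp5, a co-chaperone of the receptor and a widely used readout of its activity, read 423, 566 and 634 units on ozone arrays, against 175, 241 and 296 units on air arrays. These did not overlap, and Fkbp5 rose by 1.17 ± 0.17 (2.25-fold, adjusted p = 5.0e-06). In the list of 27 further targets, 8 rose and 5 fell, and the median was 0.22. The falls numbered 2 without air replicate 4, and 3 without air replicate 5, ozone replicate 2 or ozone replicate 4. Among the targets that rose, Cdkn1a and Nnmt were the strongest, and Tdo2, which opens the breakdown of tryptophan, rose by 0.49 ± 0.08.

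Not every target moved that way. Tsc22d3, known as GILZ, fell by 0.53 with overlapping groups, and Pck1, which commits carbon to glucose, fell (-0.37 ± 0.06). Sgk1 (0.22 ± 0.28, adjusted p = 0.64) and Tat, tyrosine aminotransferase (0.47 ± 0.23, adjusted p = 0.15), did not pass the threshold.

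In amino acid metabolism most of the genes past the threshold rose. The urea cycle, which packs ammonia into urea, had 5 of 9 genes higher and 2 lower. Slc25a15, the carrier that brings ornithine into mitochondria, read 3905, 4604 and 4739 units on ozone arrays, against 1495, 1669 and 2258 units on air arrays. It rose by 1.31 ± 0.18 (2.49-fold), with the groups far apart. Asl, which splits argininosuccinate, read 2578, 2779 and 3537 units in ozone, against 1156, 1226 and 1614 units in air (1.13 ± 0.14). Nags, which makes the activator of the first step (0.51 ± 0.07), Arg1, which releases urea (0.36 ± 0.08), and Ass1, which makes argininosuccinate (0.27 ± 0.08), rose less. Otc fell slightly (-0.20 ± 0.05), as did the aspartate carrier Slc25a13 (-0.18 ± 0.05), and Cps1, the first enzyme, read 6591, 7119.5 and 8016 units in ozone and 6682, 7038 and 7554 units in air (0.04 ± 0.04, adjusted p = 0.6).

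Of 14 aminotransferases, 4 rose and 0 fell by the limma threshold, with 1 lower at an unadjusted p under 0.05. Agxt, which turns glyoxylate into glycine, read 1203, 1351 and 1468 units in ozone, against 666, 692 and 746 units in air (0.93 ± 0.12). Oat, which degrades ornithine, rose by 0.49 ± 0.14 and Kyat1, which acts on kynurenine, by 0.27 ± 0.06. The mitochondrial partner of Got1, Got2, read 2983, 3266 and 3351 units in ozone and 2884, 3105 and 3290.4 units in air and did not pass the threshold (0.07 ± 0.04, adjusted p = 0.2). The alanine aminotransferases Gpt (0.32 ± 0.12, adjusted p = 0.054) and Gpt2 (0.22 ± 0.09, adjusted p = 0.062) also missed it.

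Of 48 further genes of amino acid breakdown, 14 rose and 3 fell. Aass, which starts the breakdown of lysine (0.91 ± 0.11), Sardh, which oxidises sarcosine (0.87 ± 0.11), Cbs, which passes homocysteine to cysteine (0.77 ± 0.10), and Mat1a, which makes S-adenosylmethionine (0.55 ± 0.08), had the smallest p. Sardh read 1695, 2113 and 2341 units in ozone, against 947, 1109 and 1255 units in air. In the same methionine branch Gnmt (0.55 ± 0.14) and Ahcy (0.28 ± 0.07) rose too. Kmo, of the kynurenine route, went the other way, at 524, 620.2 and 725 units in ozone and 863, 894 and 993 units in air (-0.57 ± 0.09).

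Of the transporters of amino acids, 6 of 26 rose and 4 fell, and the falls numbered 2 without ozone replicate 6, air replicate 1 or air replicate 5. Slc16a10, which carries aromatic amino acids, read 495, 538 and 577 units in ozone, against 193, 245 and 318 units in air (1.07 ± 0.14). Slc1a4 (0.63 ± 0.10), Slc3a2, the shared heavy chain of several exchangers (0.50 ± 0.09), and Slc38a4, a system A carrier of the liver (0.35 ± 0.06), rose by less.

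**Figure D3:**
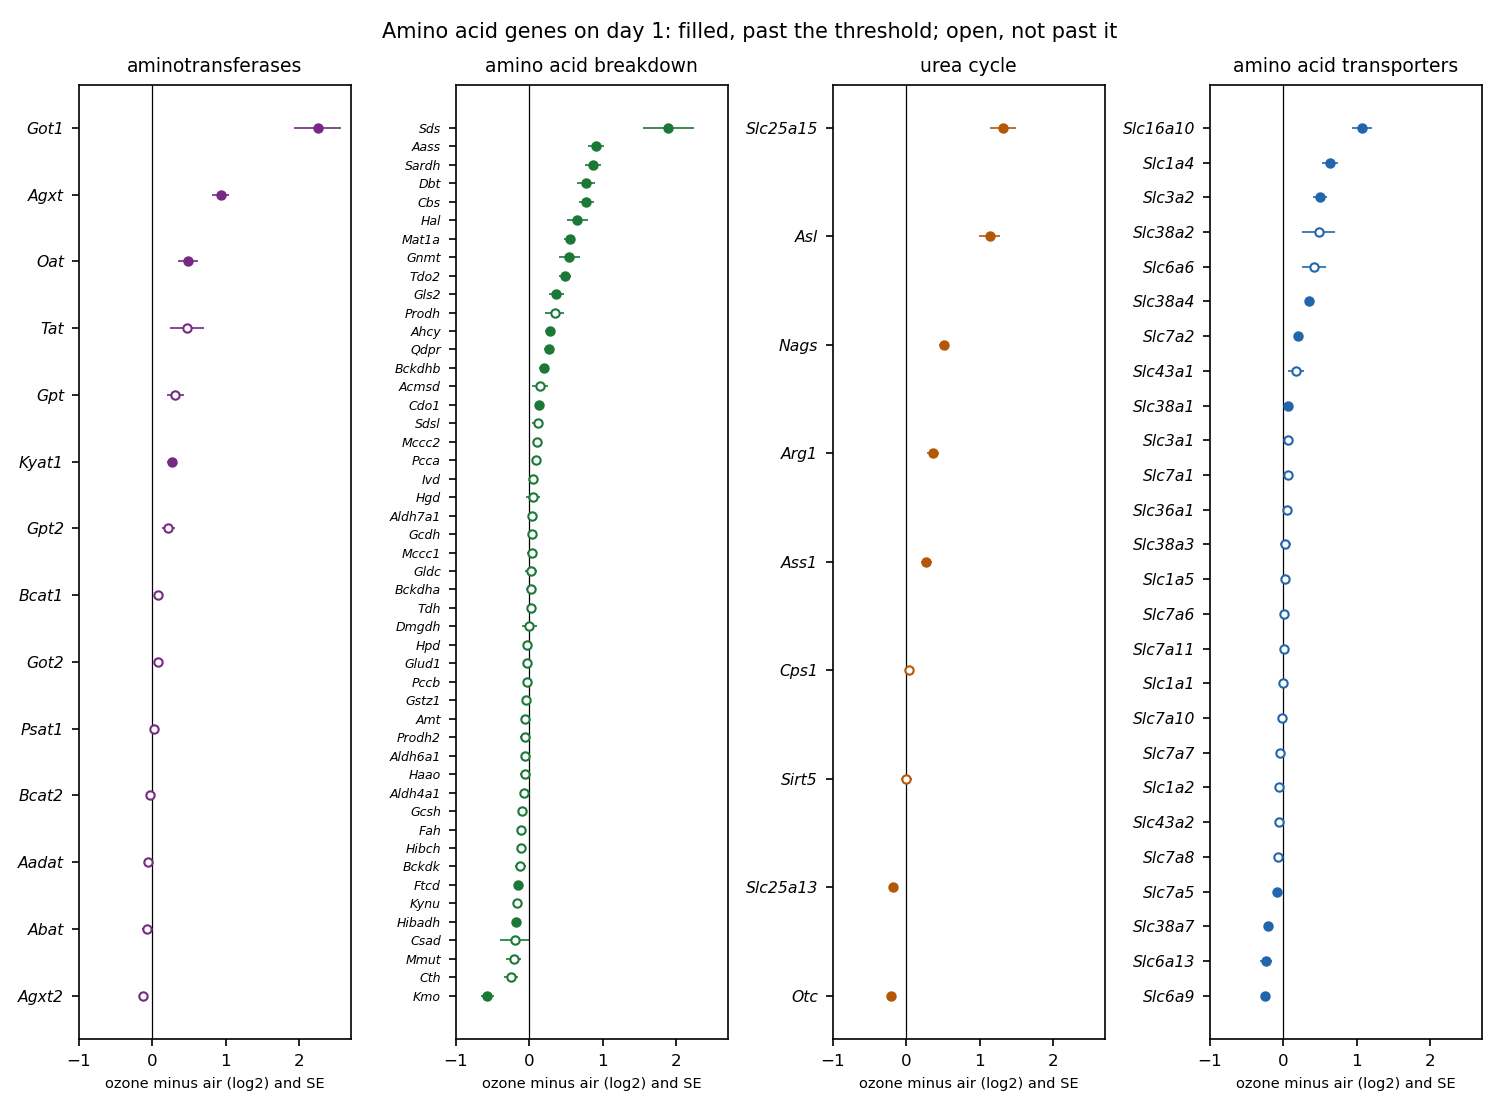
Difference of ozone minus air on day 1, log2(intensity + 16), with its SE, for every measured gene of 4 lists of amino acid metabolism, ordered by the difference within each list. Filled points passed the threshold; Got1, Sds and Slc25a15 head their lists, and Kmo is the lowest point of amino acid breakdown past the threshold.

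Of 32 genes of mitochondrial oxidation, 10 rose and 3 fell. Several genes that handle carnitine, which carries fatty acids into mitochondria, rose. Crat, carnitine acetyltransferase, read 377, 465 and 564 units in ozone, against 202, 232 and 269.8 units in air (0.91 ± 0.14). Cpt1a (0.93 ± 0.18), Cpt2 (0.85 ± 0.15), the carrier Slc25a20 (0.53 ± 0.09) and the carnitine importer Slc22a5 (0.64 ± 0.12) rose as well. Acsl3, which activates fatty acids, fell (-0.39 ± 0.09), and Cpt1b, the muscle form of Cpt1a, did not pass the threshold (0.09 ± 0.04, adjusted p = 0.057). Among the oxidation enzymes themselves Hadha, of the trifunctional protein, rose by 0.23 ± 0.08, a call lost in 6 of 27 alternative settings. Bdh1, which makes the ketone body hydroxybutyrate, fell (-0.45 ± 0.10).

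In peroxisomes, which shorten the longest fatty acids, 7 of 23 genes rose and 2 fell. Pex11a read 942, 1343 and 1933 units in ozone, against 349, 443 and 640.4 units in air, and Pex16, which builds the peroxisomal membrane, rose by 0.82 ± 0.10. Amacr, a racemase that peroxisomal oxidation and bile acid synthesis share, fell, at 2032, 2526 and 3627 units in ozone and 3762, 4357 and 4589 units in air (-0.71 ± 0.12). The count of rises was 4 without ozone replicate 1 or without ozone replicate 5.

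On lipid droplets, 5 of 24 genes rose and 3 fell. The lipase Pnpla2 read 533, 685 and 792 units on ozone arrays, against 218, 263 and 293 units on air arrays (1.32 ± 0.15). Abhd5, its co-activator, read 89.5, 100.2 and 125 units in ozone, against 156, 185 and 224 units in air (-0.76 ± 0.13). Its ozone values lie near the nonspecific signal, so the size of that difference is uncertain. Neither pair of groups overlapped. Plin5, which ties droplets to mitochondria, rose by 0.86 ± 0.09, and Fitm2, which helps droplets form, by 0.69 ± 0.10. Lipa, the lysosomal lipase, fell by 0.43. Without ozone replicate 5 the falls numbered 6.

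Synthesis of fat was mixed. In the synthesis of fatty acids and triglycerides, 5 of 31 genes rose and 7 fell. Acly, which supplies acetyl-CoA, read 594, 675 and 900.4 units in ozone, against 1201, 1521 and 1994 units in air (-1.10 ± 0.27), and Fads1, a desaturase, fell by 0.79. Fasn, fatty acid synthase (-0.22 ± 0.22, adjusted p = 0.55), did not pass the threshold. Of the acyltransferases that build triglycerides, Agpat2 (0.36 ± 0.08) and Dgat1 (0.34 ± 0.07) rose, and others, such as Dgat2, did not pass the threshold (-0.02 ± 0.06, adjusted p = 0.83). Of 25 lipoprotein genes 7 fell, among them Abca1, which exports cholesterol (-0.42 ± 0.10), Apoa5 (-0.29 ± 0.07) and Lsr (-0.33 ± 0.09). 0 rose by the limma threshold, and 1 was higher at an unadjusted p under 0.05. The lipoprotein falls numbered 4 when any of ozone replicates 2, 3 and 4 or air replicate 4 was left out.

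In cholesterol synthesis 10 of 26 genes fell, 1 rose, and the median was -0.24. Fdft1, which joins farnesyl units into squalene, read 325, 458 and 565 units in ozone, against 871, 965 and 1224 units in air (-1.15 ± 0.17). Idi1, which isomerises the isoprene unit, read 461, 521 and 661 units, against 903, 943 and 1872 units (-1.03 ± 0.22). Both pairs of groups stood apart. Nsdhl (-0.58 ± 0.11), Msmo1 (-1.27 ± 0.24) and the master regulator Srebf2 (-0.33 ± 0.06) fell as well. Hsd17b7, which acts late in the route and also on estrone, was the single member that rose (0.52 ± 0.12), and Insig1, which restrains the regulator, did not pass the threshold (0.60 ± 0.23, adjusted p = 0.065).

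Of 28 bile acid genes, 12 fell and 2 rose. Among the 28, 11 were lower in every ozone array than in any air array, against 7.63% of all genes. Baat, which attaches glycine or taurine, read 2861, 3032 and 3396 units in ozone, against 5324, 5611 and 5877 units in air (-0.85 ± 0.09). The uptake carriers Slco1b2 (-0.43 ± 0.06) and Slc10a1 (-0.28 ± 0.05) and the canalicular exporter Abcc2 (-0.87 ± 0.13) fell as well. Nr0b2, the repressor SHP that bile acids induce to limit their own synthesis, read 273, 598 and 701 units on ozone arrays, against 781, 1513 and 2388 units on air arrays (-1.39 ± 0.26). Cyp8b1, which makes the precursor of cholic acid, rose (0.74 ± 0.13), with 2946, 3235 and 4178 units in ozone and 1487, 2114 and 2206 units in air. Cyp7a1, the rate-limiting enzyme, varied widely within both groups, at 827, 2056 and 3404 units in ozone and 657, 1393 and 2331 units in air, and did not pass the threshold (0.50 ± 0.40, adjusted p = 0.42).

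Glutathione, the main thiol defence of the cell, is made by glutamate-cysteine ligase and glutathione synthetase. All 3 genes fell. Gclm, the modifier subunit of the ligase, read 331, 431 and 491 units on ozone arrays, against 1151, 1459.9 and 1726 units on air arrays. The catalytic subunit Gclc read 324, 376 and 424 units in ozone, against 657, 717 and 839 units in air. Neither overlapped between the groups, and the differences were -1.73 ± 0.18 for Gclm (3.31-fold lower, adjusted p = 8.9e-08) and -0.93 ± 0.13 for Gclc (1.91-fold lower). Gss, the synthetase, fell by 0.21. In the whole list of 29 genes, 9 fell and 1 rose, Gstm4 (0.37 ± 0.08). Gstt2, a glutathione transferase, fell by 0.80 and Hagh, which clears a glyoxal adduct, by 0.48. The falls numbered 14 when dim probe sets were left out.

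The promoter of Gclm is shown because NRF2, the regulator of antioxidant genes, acts through antioxidant response elements. The 250 bases before the start (RefSeq, GRCr8, chr2:213031885-213032134, plus strand) carry the match to the motif TGACNNNGC in capitals, on the reverse strand, at 172 to 164 bases.
Gclm: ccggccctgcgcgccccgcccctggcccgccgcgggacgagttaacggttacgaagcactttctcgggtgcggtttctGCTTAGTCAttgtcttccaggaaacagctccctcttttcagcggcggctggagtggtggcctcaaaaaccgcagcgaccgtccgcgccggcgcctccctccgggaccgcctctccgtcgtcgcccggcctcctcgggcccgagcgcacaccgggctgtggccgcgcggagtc
This motif was present in 10.1% of all promoters of this length and in 12.3% of those of measured genes. It was present in 14.4% of those of genes that rose and in 11.4% of those of genes that fell, and these shares were not tested against each other. Among glutathione genes with a known promoter, 2 of the 8 that fell held it, Gclm and Gstp1. So did 4 of the 16 that did not pass the threshold.

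Of 24 NRF2 targets and regulators outside glutathione, 10 fell and 1 rose. The regulator itself, Nfe2l2, read 368, 414 and 499 units in ozone, against 532, 622 and 662 units in air (-0.53 ± 0.12), and its inhibitor Keap1 fell by 0.28. Osgin1, which restrains growth under oxidative stress, read 356, 446 and 516 units in ozone, against 733, 1363 and 2354 units in air (-1.56 ± 0.30), with a wide spread in air. Ugdh, which supplies glucuronic acid, fell by 0.89, and Sqstm1, the autophagy adaptor p62, by 0.68. Nqo1 (-0.07 ± 0.12, adjusted p = 0.74) and Hmox1, heme oxygenase (0.44 ± 0.18, adjusted p = 0.087), did not pass the threshold. Of 23 other antioxidant enzymes, 3 rose and 5 fell, and the falls numbered 3 without any one of ozone replicates 2 and 4 or air replicates 3, 4 and 6. Srxn1, which repairs peroxiredoxins, rose (0.30 ± 0.05), and Cat, catalase, fell (-0.23 ± 0.05).

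Of 38 cytochrome P450 genes, 4 rose and 11 fell, while their reductase Por rose, at 1245, 1518 and 1857 units in ozone and 382, 577 and 914 units in air (1.40 ± 0.23). Cyp17a1, of steroid synthesis, rose by 0.66 ± 0.11, and Cyp2j3 (-0.50 ± 0.08), Cyp2d3 (-0.28 ± 0.04) and Cyp4v3 (-0.29 ± 0.06) fell. Alas1, which limits the heme supply of these enzymes, fell with overlapping groups, at 621, 1178 and 1486 units in ozone and 929, 2263 and 3191 units in air (-0.89 ± 0.23). In the heme route Alad (-0.54 ± 0.08) and Fech (-0.27 ± 0.05) fell too. Hsd3b5, a steroid reductase of male rat liver, fell by 0.85. Conjugating enzymes had 6 higher and 7 lower of 26, led by Nnmt up and Sult1c3 down (-0.54 ± 0.09). Of 34 nuclear receptors and their partners, 4 rose and 13 fell. Nr1i2, the drug sensor PXR (0.70 ± 0.11), and Esrra, which drives mitochondrial genes (0.49 ± 0.06), rose. The receptor genes Nr0b2 and Nr3c1, described above, fell. Without ozone replicate 1, 7 cytochrome P450 genes fell, and 2 rose without ozone replicate 5, air replicate 4 or air replicate 6. The falls among conjugating enzymes numbered 3 or 4 when any of ozone replicates 2, 3 and 6 or air replicates 4, 5 and 6 was left out.

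Glucose genes moved both ways. Ugp2, which makes the glucose donor for glycogen, read 1228, 1344 and 1558 units on ozone arrays, against 2840.01, 3173 and 3393 units on air arrays (-1.18 ± 0.14), and Ppp1r3b, which targets a phosphatase to glycogen, fell by 0.66. Ppargc1a, a co-activator of fasting genes, rose (0.86 ± 0.16), and Mdh1, which carries reducing power between compartments, rose (0.47 ± 0.06). G6pc1, which releases free glucose, read 3067, 3990.1 and 4879 units in ozone and 3162, 4284 and 4923 units in air (-0.04 ± 0.20, adjusted p = 0.92). In the list of 25 genes, 4 rose and 6 fell. Of 33 genes of glycolysis and pyruvate use, 7 rose and 3 fell. Aldoa (0.47 ± 0.07), Ldha (0.41 ± 0.08) and Pfkfb1 (0.82 ± 0.18) were higher, as was Pdk4, which closes the entry of pyruvate into mitochondria (0.91 ± 0.27).

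Of 38 genes of ribosome biogenesis, which make ribosomes, 19 rose and 0 fell by the limma threshold (1 was lower at an unadjusted p under 0.05), and the median was 0.11. Bop1, of large subunit assembly, read 264, 296 and 305 units in ozone, against 226, 233 and 250.2 units in air (0.28 ± 0.04), Ltv1, of small subunit export, differed by 0.47 ± 0.07, Nolc1, a nucleolar chaperone, by 0.28 ± 0.04, and Rrp1 by 0.26 ± 0.04. The protein components of cytosolic ribosomes gave no call: 0 of 37 passed the limma threshold in either direction, with 3 higher and 7 lower at an unadjusted p under 0.05. With 1 array left out, 0 to 2 were higher and 0 to 3 lower, and array weights gave 6 lower.

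Mitochondrial ribosomal proteins had 19 of 73 genes higher and 3 lower. A pair of them stood out by size. Mrps31 read 447, 633 and 727 units on ozone arrays, against 253, 266 and 303 units on air arrays (1.09 ± 0.10, adjusted p = 1.1e-08), and Mrpl47 read 488, 561 and 644 units, against 255, 281 and 328 units (0.95 ± 0.09). The next by p, Mrpl12, which also binds the mitochondrial RNA polymerase (0.49 ± 0.07), and Mrps2 (0.39 ± 0.04), rose by less. In oxidative phosphorylation 15 of 65 genes rose and 2 fell, all by small steps, led by Atp5mc1, of the ATP synthase ring (0.37 ± 0.06). With quantile normalization 29 of these rose.

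**Figure D4:**
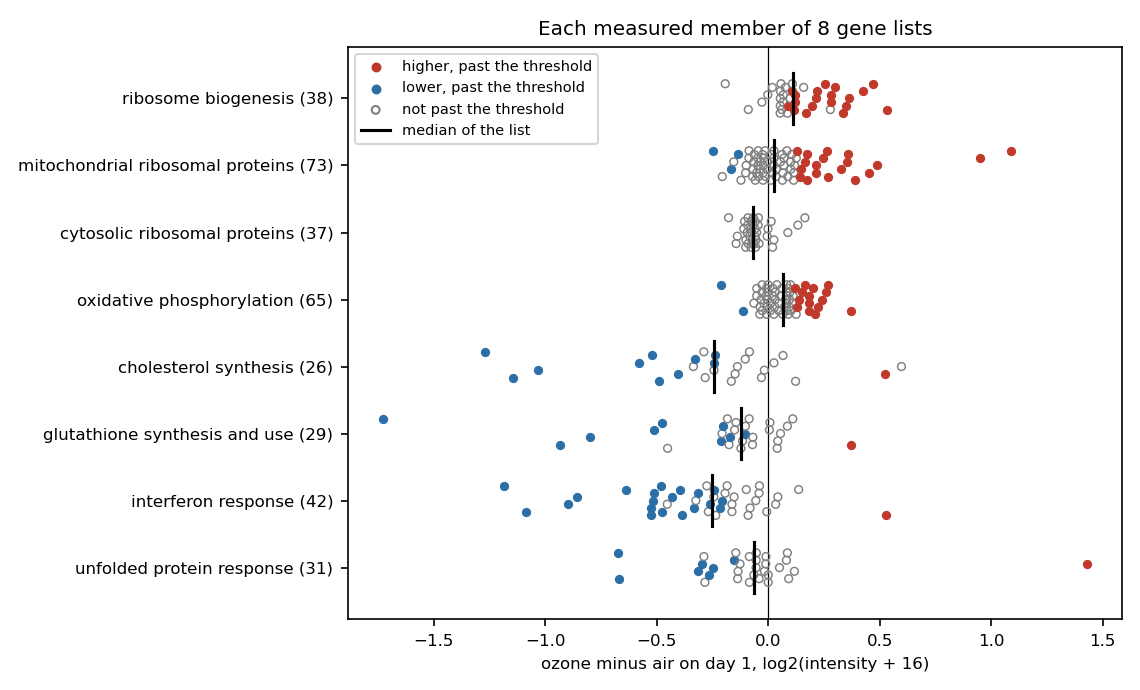
Difference of ozone minus air on day 1, log2(intensity + 16), for every measured member of 8 gene lists, with red points higher and blue points lower past the threshold, open points not past it and a bar at each list's median. Ribosome biogenesis (median 0.11) has no blue point, cytosolic ribosomal proteins have no filled point, and cholesterol synthesis (median -0.24) and the interferon response (median -0.25) lie mostly left of 0.

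Of 24 RNA-binding proteins, 8 rose and 4 fell. The falls numbered 1 or 2 without any one of ozone replicates 2, 3, 4 and 6 or air replicates 2, 4, 5 and 6. Both classic cold-inducible genes rose. Beside Rbm3, Cirbp read 374, 467 and 689 units in ozone, against 253, 271 and 284 units in air (0.85 ± 0.13). The splicing regulators Hnrnpdl (0.87 ± 0.09), Srsf3 (0.70 ± 0.11) and Srsf2 (0.51 ± 0.08) rose as well. Of 29 heat shock proteins, 9 fell and 4 rose. Hspa8, the constitutive chaperone, read 1795, 2107 and 2468 units in ozone, against 3072, 3250.4 and 3729 units in air (-0.64 ± 0.11). Its partners Dnaja1 (-0.77 ± 0.09) and Dnajb1 (-0.46 ± 0.09) fell, while the mitochondrial chaperones Hspd1 (0.23 ± 0.04) and Hspe1 (0.24 ± 0.05) rose.

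Among genes of endoplasmic reticulum stress more fell than rose. Of 31 genes of the unfolded protein response, 1 rose, Edem1, and 7 fell. Xbp1, the transcription factor that induces Edem1, fell (-0.67 ± 0.12), at 998, 1006 and 1109 units in ozone and 1353, 1663 and 2032 units in air, and Pdia5 (-0.68 ± 0.11) and Pdia4 (-0.30 ± 0.06), which form disulfide bonds, fell too. Hspa5, the main chaperone of this compartment, did not pass the threshold (-0.14 ± 0.10, adjusted p = 0.38). In the integrated stress response 1 of 29 genes rose and 1 fell. Its factor Atf3 read 108, 115 and 129.97 units in ozone, against 112, 127 and 867 units in air, where a single array was high (-0.54 ± 0.46, adjusted p = 0.45).

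Of 26 growth arrest genes and p53 targets, 5 rose and 5 fell. Ccng1 (0.65 ± 0.09) and Btg1 (0.49 ± 0.09) rose beside Cdkn1a, and Ccng2 fell (-0.45 ± 0.08). Mdm2, another target of p53, read 243, 246 and 265 units in ozone and 242, 256 and 264 units in air (-0.01 ± 0.04, adjusted p = 0.83). Ccnd1, the cyclin that starts the cycle, read 259.6, 306 and 331 units in ozone, against 441, 507 and 607 units in air (-0.77 ± 0.09), and Myc fell by 0.61. The growth hormone axis had 5 of 21 genes lower and 0 higher by limma, and 7 lower and 0 higher at an unadjusted p under 0.05. The count was 3 without any one of ozone replicates 3, 5 and 6 or air replicates 3 and 6. Its feedback genes Socs2 and Cish (-0.54 ± 0.19, a call lost in 9 of 27 alternative settings) and Igfals, which holds IGF1 in the blood (-0.67 ± 0.16), fell, and Igf1 itself missed the threshold (-0.15 ± 0.06, adjusted p = 0.065).

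Of 42 interferon-induced genes, 20 fell and 1 rose, with a median of -0.25. The median ozone effect of this list was -0.246 at day 2 and -0.316 at 18 h, against -0.001 and 0.015 over all genes. Parp14, a mono-ADP-ribosyltransferase, read 299, 332 and 369 units on ozone arrays, against 602, 626 and 686 units on air arrays (-0.90 ± 0.12, adjusted p = 1.6e-06). Igtp, a GTPase against pathogens inside cells, read 349, 397 and 428 units, against 662, 903 and 994 units (-1.08 ± 0.25), and Irgm, of the same family, read 184, 196 and 213 units, against 336, 365 and 426 units (-0.86 ± 0.16). None of the 3 overlapped between the groups. Ifit2 (-0.53 ± 0.09) and Mx2 (-1.19 ± 0.32, with overlap) fell, and Trim25, a ubiquitin ligase of RNA sensing, rose (0.53 ± 0.10). Among 22 genes of antigen presentation 4 fell, led by RT1-N2 (-0.64 ± 0.13); 0 rose by the limma threshold, and 2 were higher at an unadjusted p under 0.05. Without ozone replicate 3, 8 of the antigen presentation genes fell.

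The promoters of these genes are shown because interferon factors act through interferon-stimulated response elements close to the start. In each 250 bases (RefSeq, GRCr8; Parp14 chr11:78407884-78408133, plus strand; Igtp chr10:42874797-42875046, plus strand; Irgm chr10:33742579-33742828, minus strand) the match to the interferon-stimulated response element, on the reverse strand, is in capitals.
Parp14: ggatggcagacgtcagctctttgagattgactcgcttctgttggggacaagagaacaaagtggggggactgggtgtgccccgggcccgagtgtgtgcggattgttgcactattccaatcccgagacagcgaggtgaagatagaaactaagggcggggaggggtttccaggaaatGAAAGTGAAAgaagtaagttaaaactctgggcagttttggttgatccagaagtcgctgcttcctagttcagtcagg
Igtp: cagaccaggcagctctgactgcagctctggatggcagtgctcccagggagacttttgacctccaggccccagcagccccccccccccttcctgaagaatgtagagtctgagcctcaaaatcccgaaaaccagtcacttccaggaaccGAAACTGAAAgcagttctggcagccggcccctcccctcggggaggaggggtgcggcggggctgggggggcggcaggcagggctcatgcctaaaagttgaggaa
Irgm: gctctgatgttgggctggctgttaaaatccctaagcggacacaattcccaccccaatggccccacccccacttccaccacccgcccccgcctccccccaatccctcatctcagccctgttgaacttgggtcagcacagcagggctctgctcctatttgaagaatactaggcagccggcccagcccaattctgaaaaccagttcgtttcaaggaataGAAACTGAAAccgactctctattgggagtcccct
The matches lie 76 to 67 bases before the start in Parp14, 103 to 94 in Igtp and 34 to 25 in Irgm. Each has a match to the STAT motif TTCNNNGAA just before it, with no overlap. The STAT motif was present in 7.67% of all promoters of this length and in 6.13% of those of measured genes. The Gclm promoter above also holds it, at 158 to 150 bases. The response element was present in 3.41% of all promoters of this length and in 2.65% of those of measured genes. It was present in 11 of the 16 interferon genes that fell and have a promoter in the table, and in 10 of the 15 that did not pass the threshold.

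In tight and adherens junctions, 8 of 24 genes fell and 3 rose. Cldn3, a sealing claudin, read 410.2, 608 and 689 units on ozone arrays, against 925, 1269.97 and 1567 units on air arrays (-1.14 ± 0.17), Cldn2, which forms a pore, fell by 0.86, and Cdh1, E-cadherin, by 0.80. Cldn1 rose (0.85 ± 0.24). Of 21 clock genes 3 rose and 4 fell, close to the shares over all genes. Bmal1, the core activator, was higher (0.51 ± 0.08), and the output gene Dbp read 156, 168 and 215 units in ozone, against 221, 375 and 681 units in air (-1.10 ± 0.23). The repressor Nfil3 rose by 0.79 ± 0.18. The labels give no clock time of harvest.

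Markers of other cell types were counted in the same way. Of 13 Kupffer cell and macrophage markers 1 fell, Lyz2 (-0.63 ± 0.09), and their summed intensity was 6904 to 10450 units on ozone arrays and 8680 to 10108 units on air arrays. The ratio of the means was 0.880 (exact permutation test over 924 splits, two-sided, p = 0.108, adjusted p = 0.432). Endothelial markers had 4 of 10 lower, among them Stab2 (-0.20 ± 0.06, a call lost in 4 of 27 alternative settings), against 13.5% of all genes. That count was 1 without air replicate 5 and 2 without ozone replicate 3. The markers had a summed intensity of 3467 to 4399 units on ozone arrays and 3644 to 4547 units on air arrays. Neutrophil and monocyte markers had 1 higher and 1 lower of 12. Defining neutrophil genes were dim: S100a9, for example, read 158, 172 and 216 units in ozone and 154, 185 and 202 units in air. No summed marker level or technical measure differed at an adjusted p under 0.05 in the 16 exact permutation tests, for which 0.00216 is the smallest p possible before adjustment. The part of other cells in the results above was not tested further.

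The first exposure was then set against the later harvests, each with its own air group. At the end of day 2 the same test called 22 genes (0.164%), and 18 h later 96 genes (0.714%). Some genes ran widely within both day 2 groups. Got1 read 830, 4740 and 5349 units on day 2 ozone arrays, against 1069, 1854 and 4468 units on day 2 air arrays. Hsd17b2 read 870, 1005 and 2600 units, against 851, 4270 and 4992 units. How far single arrays set the count of 22 was not tested. The difference between ozone effects was tested directly. It passed the threshold for 492 genes at day 2 against day 1 (3.66%) and for 2198 genes at 18 h against day 1 (16.4%). The day 2 count was 213 without day 2 ozone replicate 5, 312 without day 2 ozone replicate 1 and 316 without day 2 air replicate 5. It was 266 without day 1 ozone replicate 3 and day 1 air replicate 2 together, and 237 without the 4 later arrays that lay apart from their groups, an alternative chosen after seeing the data.

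All 15 named rises were above 0 at day 2, with a median of 0.57, against 1.43 on day 1, and 5 were above 0 at 18 h (median -0.19). All 15 named falls were below 0 at day 2 (median -0.58, against -1.56 on day 1), and 7 were below 0 at 18 h (median 0.00). These genes were chosen for a large difference on day 1, so smaller values at other times are in part fixed by that choice. The day 2 medians also include the day 2 arrays that lay apart from their groups. At 18 h, 0 of the 30 passed the limma threshold, with 3 of the rises and 1 of the falls at an unadjusted p under 0.05.

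Cxcl1 had an ozone effect of 0.15 ± 0.57 at day 2 and -0.27 ± 0.57 at 18 h, and both were lower than on day 1 (-2.86 ± 0.78 and -3.27 ± 0.78). The first of these calls was lost in 17 of 46 alternative settings. At 18 h the lowest, median and highest Cxcl1 values were 153, 170 and 3656 units on air arrays. They were 145, 180 and 1122 units on ozone arrays. The highest air array of that time thus lay above every ozone array of day 1. With 1 array left out, the 18 h difference from day 1 ran from -3.79 to -2.40. Gclm had -0.25 ± 0.20 and 0.17 ± 0.20 (1.47 ± 0.27 and 1.90 ± 0.27 against day 1). Fabp7 (1.42 ± 0.25), St3gal6 (1.20 ± 0.23), Ptger3, a prostaglandin receptor (1.04 ± 0.18), and Id4, an inhibitor of transcription factors (0.98 ± 0.21), also fell less at day 2 than on day 1. On day 1 the median of Ptger3 was 233 units in ozone and 561 units in air, and that of Id4 568 and 1155 units. At day 2 these medians were 423 and 510 units for Ptger3 and 1155 and 1216 units for Id4. Cdkn1a (-1.38 ± 0.27) and Pnpla2 (-0.998 ± 0.22) rose less at day 2 than on day 1.

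Scd and Fabp5 differed between times without a call on day 1. Scd, which adds a double bond to saturated fatty acids, read 416, 792 and 1019 units in ozone and 586, 757 and 983 units in air on day 1 (-0.05 ± 0.41, adjusted p = 0.95). Its ozone effect was -2.27 ± 0.45 at day 2, a difference of -2.22 ± 0.61 that did not hold in 15 of 46 alternative settings. Fabp5, a fatty acid carrier, likewise differed by -1.07 ± 0.22. At 18 h against day 1 the largest positive differences were those of Osgin1 (2.64 ± 0.44), Nrep (2.33 ± 0.58), Rgs3 (2.05 ± 0.35) and Hsd17b2 (1.99 ± 0.50). The largest negative ones, after Cxcl1, were Got1 (-3.17 ± 0.47), Sds (-3.08 ± 0.52), Mfsd2a, which imports lysophospholipids (-2.39 ± 0.40), and Scd (-2.08 ± 0.61). Apart from Scd, the genes named for 18 h had passed the threshold on day 1. Rgs3 had fallen, at 269, 330 and 353 units in ozone and 530, 707 and 1172 units in air. Mfsd2a had risen, at 1464, 1881 and 2355 units in ozone and 538, 989 and 1312 units in air.

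**Figure D5:**
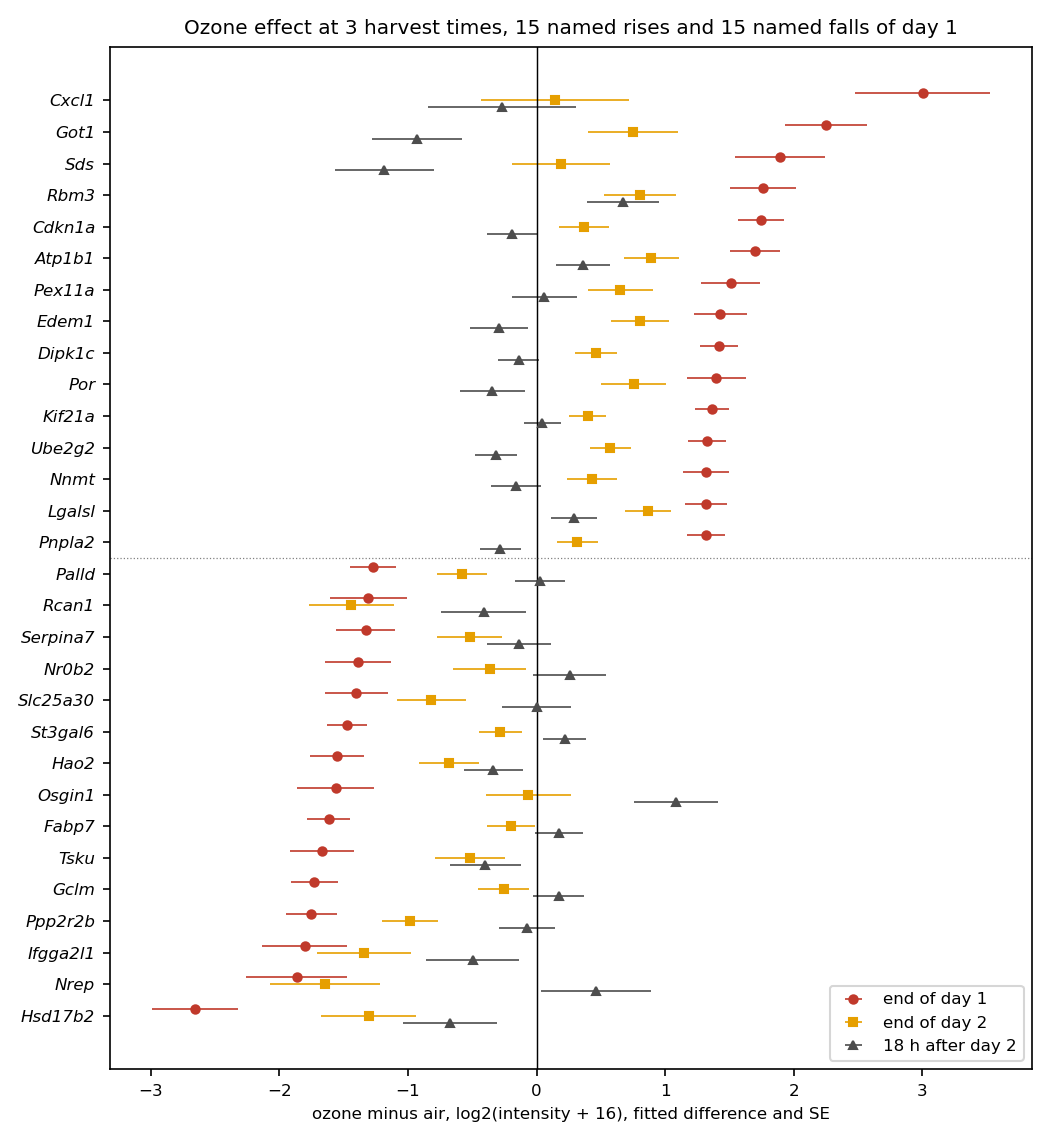
Fitted ozone minus air difference, log2(intensity + 16), with its SE, for the 15 named rises (above the dotted line) and 15 named falls of day 1, at the end of day 1 (circles), the end of day 2 (squares) and 18 h after day 2 (triangles). Day 2 values keep the day 1 sign in all 30 genes and 18 h values scatter about 0, with medians of -0.19 and 0.00.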

How the data were processed

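Sample titles gave the groups and replicate numbers. The values deposited by the authors are linear intensities, 1 for each probe set and array. The submitters' processing notes name PLIER and Affymetrix Expression Console for this step. Their versions, background correction and scaling of arrays were not given in the sources used here. No detection calls were used. PLIER values keep some background, since probes for nonspecific binding stay well above 0, and no further scaling was applied.

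The 31139 probe sets held 97 controls, 11407 without a gene and 573 with several genes, which were left out, and 19062 with 1 gene. Entrez identifiers of 18983 of these were found in the RefSeq gene table (GRCr8), and 0 symbols changed. Values were analysed as log2(intensity + 16) with the R package limma (version 3.58.1, R 4.3.3), using its lmFit function and an eBayes moderation that follows intensity. All 32 arrays entered 1 model of 6 group means without a block. All tests were two-sided, and Benjamini-Hochberg adjustment ran over 19062 probe sets, with a threshold of 0.05 for the adjusted p-value. The brightest probe set stood for its gene. Of the called genes, 1130 have several probe sets, and for 27 of them another probe set was called the other way. Errors of differences are SE. Exact permutation tests compared single values over the 12 arrays of day 1.

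Genes named are the 15 largest rises and 15 largest falls past the threshold whose groups do not overlap, with unannotated names passed over; from each list the 4 members with the smallest p, with more where a branch of a pathway is described and further members given by their values; and the 5 largest differences in each direction between the ozone effect of day 1 and those of the later times. The 60 lists matched 1549 of 1791 entries. The comparison, the lists and the tests were chosen with earlier results of these data known. Promoters of 250 bases came from RefSeq (GRCr8) and were searched on both strands. The limma steps were tested on simulated data. Alternatives covered scaling, quantile normalization, the offset, filters on dim probe sets, the probe set per gene, the arrays in the fit, moderation, array weights, a replicate block and left-out arrays. Figures were drawn with Python 3.11.15, pandas 2.3.3 and matplotlib 3.10.9.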

Additional observations from a re-analysis of the deposited data

Results flagged for a closer look

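In a group of 6 arrays, a value was taken as outlying where its gap to the nearest other array, divided by the group's range, exceeded Dixon's 95% critical value. Of 442 groups of 6 values tested, 24 were outlying, and chance gives about 5%. Technical values were outlying on the same 2 arrays. Ozone replicate 3 had a nonspecific signal of 66.1 and a median intensity of 153 units (other ozone arrays 158 to 159 units), and air replicate 2 had a nonspecific signal of 54.3 and a median intensity of 147 units (other air arrays 157 to 160 units). The same arrays were low for the dim gene Cxcl2, at 89.5 units on ozone replicate 3 and 83.4 units on air replicate 2, and air replicate 2 was low for Il6 (81.0 units).

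On ozone arrays, Cxcl1 read 602 units on replicate 1, where the others read 1386 to 2222 units, and Serpina3n was low on the same array (4571 units). Cdkn1a read 372 units on replicate 4, where the others read 791 to 1110 units. Nr0b2 read 273 units on replicate 5 (others 565 to 701 units), and on that array Srsf3 was high (1033 units) and Got2 low (2983 units). Replicate 6 was low for Cpt2 (1141 units) and Fabp7 (584 units) and high for Dbp (215 units). Replicate 2 was low for Aass (3942 units), and replicate 3 was high for Xbp1 (1109 units). On air arrays, replicate 6 read 867 units for Atf3, where the others read 112 to 144 units, and it was high for Myc (271 units) and low for Srsf2 (911 units). Replicate 1 was low for Sgk1 (221 units) and Ugdh (1651 units), and replicate 5 was high for Stab2 (395 units).

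The ozone effect differed between harvest times, by limma's test of the difference itself, for the genes named for that purpose. Against day 1, day 2 differed by 1.47 ± 0.27 for Gclm, 1.42 ± 0.25 for Fabp7, 1.20 ± 0.23 for St3gal6, 1.04 ± 0.18 for Ptger3 and 0.98 ± 0.21 for Id4. It differed by -2.86 ± 0.78 for Cxcl1, -2.22 ± 0.61 for Scd, -1.38 ± 0.27 for Cdkn1a, -1.07 ± 0.22 for Fabp5 and -0.998 for Pnpla2. At 18 h the differences were 2.64 ± 0.44 for Osgin1, 2.33 ± 0.58 for Nrep, 2.05 ± 0.35 for Rgs3, 1.99 ± 0.50 for Hsd17b2 and 1.90 ± 0.27 for Gclm. They were -3.27 ± 0.78 for Cxcl1, -3.17 ± 0.47 for Got1, -3.08 ± 0.52 for Sds, -2.39 ± 0.40 for Mfsd2a and -2.08 ± 0.61 for Scd.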

How the results depend on the processing

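Over all alternatives run for day 1, the genes that rose numbered 1274 to 1758 and those that fell 1512 to 2050, against 1477 and 1817 as reported, and 2677 to 3293 of the 3294 calls were shared, fewest without ozone replicate 3 and air replicate 2 together. Leaving out 1 array gave 1324 to 1447 rises and 1512 to 1982 falls. Of 182 named genes past the threshold on day 1, 175 stayed past it in every alternative that held them. The others were Cish, Hadha, Stab2, Tsc22d3, Mrps2, Nolc1 and Pdk4, and none of the 182 changed sign. Of 27 named genes not past it, 13 passed in at least 1 alternative, among them Gpt in 10 and Gpt2 in 8 of 27. Of 2322 list counts run under alternatives, 233 moved by more than 1.5 times or to or away from 0.

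The count of genes whose ozone effect at day 2 differed from day 1, 492 as reported, was 817 with array weights, 316 with a replicate block, 266 without day 1 ozone replicate 3 and air replicate 2, 237 without the 4 later arrays that lay apart, and 213 to 721 with 1 array left out. The cause was not tested. The count at 18 h against day 1 was 1889 to 2395 with 1 array left out.

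Differences near 0 changed sign. Quantile normalization gave 0.012 for G6pc1, 0.0053 for Mdm2 and 0.00104 for Dgat2, and Dgat2 was at 0.015 with array weights and 0.0154 without day 1 ozone replicate 3 and air replicate 2. With 1 array left out the differences were -0.073 to 0.031 for Cxcl2, -0.049 to 0.000297 for Dgat2, -0.11 to 0.038 for G6pc1, -0.019 to 0.13 for Il6, -0.071 to 0.012 for S100a9 and -0.15 to 0.10 for Scd.

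Arrays with the same replicate number did not deviate together (r = -0.43 to -0.045), and 0 of 6 correlated best with its own number, so the numbers are not taken as pairs. With the replicate block 1407 genes rose and 1699 fell. Dim genes lie near the nonspecific signal, which limits what can be detected. The intensity spread covariate, the removal of the 4 later arrays and the removal of single later arrays were chosen after seeing the data.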

Other observations

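The platform annotation gives no gene for 11407 probe sets. Of these, 756 were higher and 648 lower in ozone than in air on day 1 when all non-control probe sets were fitted together with limma, which is 12.3%, against 21.4% of the probe sets with a single gene. They were not used in any comparison above.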
